A study of Vitis vinifera with 12 samples.

Results

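The isoflavone reductase-like genes of grapevine (Vitis vinifera) are described here by the rows of both expression tables that carry the name IFRL followed by a number. The rule found 5 genes, IFRL1, IFRL3, IFRL4, IFRL5 and IFRL6, of 25210 rows in the peel table and 25253 rows in the leaf table. Each name stood on 1 row of each table, with no other gene name on that row. The members were chosen by name, but the family was selected on measured values, since cultivar differences of IFRL4 and IFRL6 in peel were known from earlier results of these data. All levels and differences below are therefore a description and carry no test.

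Isoflavone reductase is best known from legumes, where it reduces isoflavones on the way to defence compounds. Proteins that resemble it occur widely in plants that make few isoflavonoids, and belong to a group of NADPH-dependent reductases that also holds pinoresinol-lariciresinol reductase, phenylcoumaran benzylic ether reductase and leucoanthocyanidin reductase. These enzymes act on lignans, on dimers of lignin-type alcohols and on the precursors of tannins. The names in the files do not say which compound each grape IFRL protein reduces.

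The study sequenced messenger RNA from fruit peels and young leaves of 3 cultivars (Bangalore blue, Red globe, Dilkhush) said to vary in anthocyanin, the red to blue pigment of grape skin. The 12 libraries form 6 groups of 2, and no treatment or transgene is named. The deposited values are RPKM (reads divided by transcript length in kilobases and by the mapped reads of the column), in 6 columns, 1 per cultivar and tissue. A group therefore has 1 value, no spread between replicates can be had, and no order of cultivars below can be set against replicate error. A row was called where 2 cultivars differed at least 4-fold, a difference of 2 in log2(RPKM + 1), and the larger value was at least 10 RPKM. On this scale the differences of low rows are understated.

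The sequencing depth is unknown. Transfer RNA rows took 13.9% of summed RPKM in Bangalore blue peel, 33.6% in Red globe peel and 20.7% in Dilkhush peel. Their share of the leaf columns ran between 11.6% and 13.3%. These are shares of summed RPKM and not of reads, so what they mean for the other rows of a column is unknown. The 10 rows of ripening-induced GRIP genes and TL3 summed to 42052, 17445 and 25988 RPKM in Bangalore blue, Red globe and Dilkhush peel, against 637, 698 and 500 RPKM in the leaves. A few rows carried these sums, with the TL3 row at 23183 and GRIP22 at 11936 RPKM in Bangalore blue peel. The TL3 row carries further gene identifiers, more of them in leaf than in peel. The GRIP4 and GRIP61 rows carry a further name in peel alone. For these rows the sums and ratios do not compare the same genes between tissues. Over the 10 rows the peel to leaf ratio had a median of 13.6 for Bangalore blue, 18.7 for Red globe and 32.0 for Dilkhush. Among these 10 rows GRIP55 was the exception, at 50.8 RPKM in Bangalore blue peel and 76.9 in Bangalore blue leaf. UFGT and GST4, peel markers of the same list, were left out of these sums and ratios. In Dilkhush both were lower in peel than in leaf, UFGT at 2.09 and 7.87 RPKM and GST4 at 9.86 and 53.2 RPKM. In Bangalore blue and Red globe both were higher in peel. The photosystem II genes PSBP1 and PSBP2 summed to 366, 250 and 505 RPKM in the peels, against 2159, 549 and 1853 RPKM in the leaves, in the same cultivar order. None of these marker rows was at 0, and Red globe leaf had the lowest sum of the leaf columns. In bulk tissue, fewer cells of a type and less RNA per cell cannot be told apart. The part of tissue make-up in the IFRL levels was not tested. Rows of seed markers were not analysed here.

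IFRL5 was the most abundant member in all 6 columns. Its level was 322 RPKM in Bangalore blue peel, 1171 in Red globe peel and 399 in Dilkhush peel. Red globe peel stood highest, at place 51 of 25210 rows, while the other peels were at place 253 in Bangalore blue and place 222 in Dilkhush. In the leaf table IFRL5 was 85.8 RPKM in Bangalore blue leaf, 162 in Red globe leaf and 139 in Dilkhush leaf. Red globe was again highest and Bangalore blue lowest. IFRL5 exceeded at least 94.7% of rows in every column. The level in the peel table was 3.76 times the level in the leaf table in Bangalore blue, 7.21 times in Red globe and 2.87 times in Dilkhush. Peel and leaf were deposited as separate tables, and how they were normalized to each other is not given in the sources used here. Such ratios between peel and leaf therefore describe the deposited values and cannot be taken to be on a shared scale.

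IFRL6 differed most between cultivars in peel on the log2(RPKM + 1) scale. Its level was 12.7 RPKM in Bangalore blue peel, 157 in Red globe peel and 189 in Dilkhush peel. Red globe and Dilkhush lay close together, at 12.3 and 14.9 times the Bangalore blue value. In the other table the levels were 16.2 RPKM in Bangalore blue leaf, 20.5 in Red globe leaf and 20.7 in Dilkhush leaf, so that the leaf columns lay within 1.28-fold of each other. IFRL6 in Red globe and Dilkhush was thus higher in the peel table than in the leaf table, by 7.64 and 9.13 times, whereas in Bangalore blue it was 0.785 times the leaf value.

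IFRL4 stood highest in Red globe in both tissues. It was 5.80 RPKM in Bangalore blue peel, 61.0 in Red globe peel and 18.4 in Dilkhush peel. It was 13.4 RPKM in Bangalore blue leaf, 44.5 in Red globe leaf and 14.4 in Dilkhush leaf. Red globe leaf was 3.33 times Bangalore blue leaf, while Bangalore blue and Dilkhush leaves lay within 1.08-fold of each other. IFRL4 had no large excess in peel, with peel to leaf ratios of 0.433 in Bangalore blue, 1.37 for Red globe and 1.28 for Dilkhush. This differs from IFRL5 in all cultivars, and from IFRL6 in Red globe and Dilkhush.

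IFRL1 and IFRL3 were low in peel and higher in leaves. IFRL1 was 1.63 RPKM in Bangalore blue peel, 0.026 in Red globe peel and 0.51 in Dilkhush peel, below 10 RPKM in each. It was 10.6 RPKM in Bangalore blue leaf, 9.50 in Red globe leaf and 6.07 in Dilkhush leaf, a range of less than 2-fold with Bangalore blue highest. IFRL1 was the member that was highest in Bangalore blue, which it was in both tissues.

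IFRL3 was listed at 0 in Bangalore blue peel, and was 0.32 RPKM in Red globe peel and 1.74 in Dilkhush peel. It was 0.86 RPKM in Bangalore blue leaf, 2.29 in Red globe leaf and 12.3 in Dilkhush leaf. The order of the cultivars was the same in both tissues, with Dilkhush highest and Bangalore blue lowest. Dilkhush leaf was the 1 column where IFRL3 reached 10 RPKM.

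**Figure D1:**
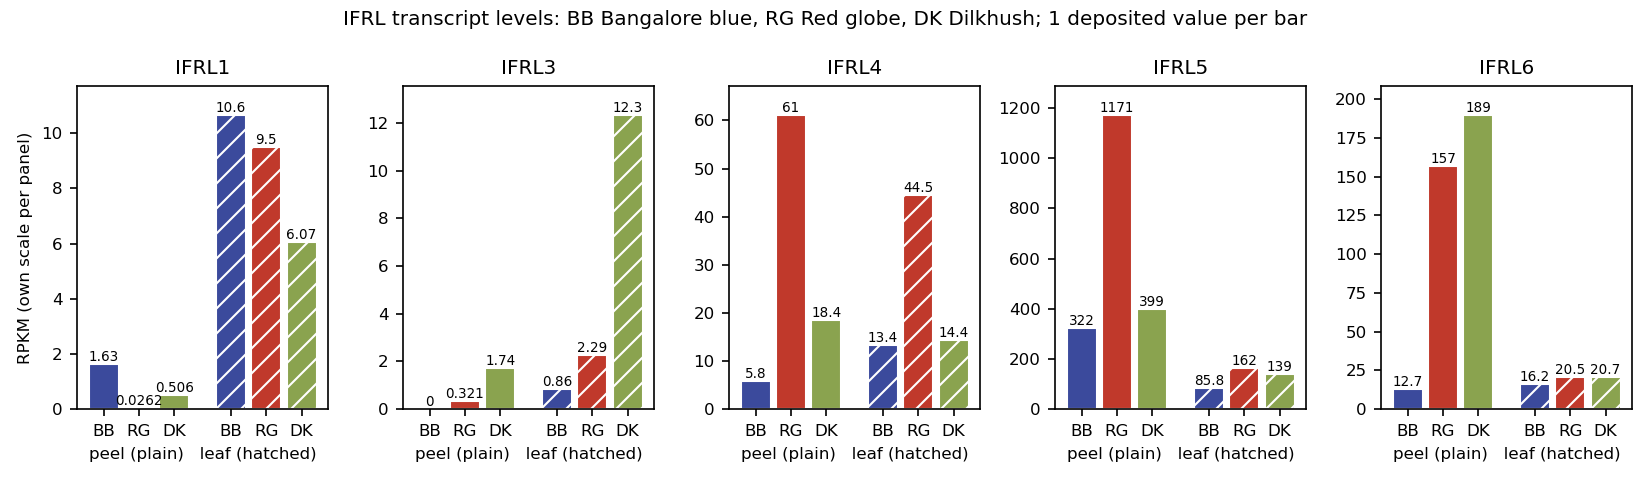
RPKM of each IFRL gene (vertical axis, linear from 0, its own scale in each panel) in Bangalore blue (BB), Red globe (RG) and Dilkhush (DK), with peel as plain bars and leaf as hatched bars; each bar is 1 deposited value with no error. IFRL6 stands at 12.7 RPKM in Bangalore blue peel beside 157 and 189 in the other peels, IFRL4 and IFRL5 peak in Red globe, and IFRL3 peaks in Dilkhush leaf at 12.3.

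The first comparison was Bangalore blue peel against Dilkhush peel. IFRL6 was the 1 member called, lower in Bangalore blue, with a difference in log2(RPKM + 1) of -3.80, and 0.733% of the rows tested lay further down. It was 1 of the 3 members that reached 10 RPKM in the higher cultivar, while 6.09% of all 9551 rows tested were called. IFRL4 had a difference of -1.52 and IFRL5 of -0.31, both short of the 4-fold size. IFRL3 had a difference of -1.45 and IFRL1 of 0.80, both at levels below the floor. The median was -1.45 over the 5 members, -1.52 over the 3 at the floor and -0.09 over all rows tested.

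No member was called between Red globe and Dilkhush peel, where 5.76% of 9594 rows were. IFRL4 and IFRL5 were nevertheless both higher in Red globe, by 1.67 and 1.55 on the log2 scale, and 3.24% and 3.73% of the rows tested lay further up. IFRL6 had a difference of -0.27, the sign of which turned to 0.06 with quantile normalization. IFRL1 and IFRL3, below 10 RPKM in both cultivars, had differences of -0.55 and -1.05, which were -2.26 and -2.13 with a pseudocount of 0.1. The median was -0.27 over the 5 members, but 1.55, of the opposite sign, over the 3 at the floor, and -0.12 over all rows tested.

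Between Bangalore blue and Red globe peel 2 of the 3 members at the floor were called, where 5.25% of 9459 rows were. Both were lower in Bangalore blue, IFRL6 with a difference of -3.53 and IFRL4 with a difference of -3.19. Beyond them lay 0.666% and 0.899% of the rows tested. IFRL5 had a difference of -1.86, just short of the 4-fold size, at 322 RPKM in Bangalore blue peel and 1171 in Red globe peel. The median was -1.86 over the 5 members, -3.19 over the 3 at the floor and 0.03 over all rows tested. This comparison shares its columns with the previous ones, so the 3 do not describe separate material.

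In leaves the member that differed most on that scale was IFRL3. Between Bangalore blue and Dilkhush leaf all 5 members reached the floor and IFRL3 was the 1 called, with a difference of -2.84, where 4.05% of 11271 rows were called. IFRL3 reached 10 RPKM in Dilkhush leaf alone, and the call ended where 2 leaf columns had to reach 5 RPKM. IFRL1 was the 1 member above 0, at 0.72, and IFRL4, IFRL5 and IFRL6 had differences of -0.10, -0.69 and -0.34. The median was -0.34 over the members and -0.03 over all rows tested.

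Between Red globe and Dilkhush leaf IFRL3 was again the 1 member called, of 4 at the floor, with 5.3% of 11602 rows called. Its difference was -2.02, barely past the 4-fold size, and it moved to -1.96 with columns scaled to equal medians, which ends the call. IFRL4 was higher in Red globe by 1.56, and IFRL5 by 0.23. IFRL6 lay at -0.01, with a sign that turned under quantile normalization and both other scalings. IFRL1 had a difference of 0.57, opposite in sign to its peel difference. The median was 0.23 over the 5 members, 0.11 over the 4 at the floor and 0.03 over all rows tested.

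No member was called between Bangalore blue and Red globe leaf, with 4 at the floor and 5.21% of 11595 rows called. IFRL4 came nearest, with a difference of -1.66. IFRL5, IFRL3 and IFRL6 were lower in Bangalore blue with differences of -0.91, -0.82 and -0.32, and IFRL1 lay at 0.15. The median was -0.82 over the 5 members, -0.62 over the 4 at the floor and -0.05 over all rows tested. PSBP1, a leaf marker, was 2084 RPKM in Bangalore blue leaf and 494 in Red globe leaf. PSBP2, the other leaf marker, differed less, at 74.7 and 54.4 RPKM in the same order. The part of these markers in the IFRL values was not tested.

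**Figure D2:**
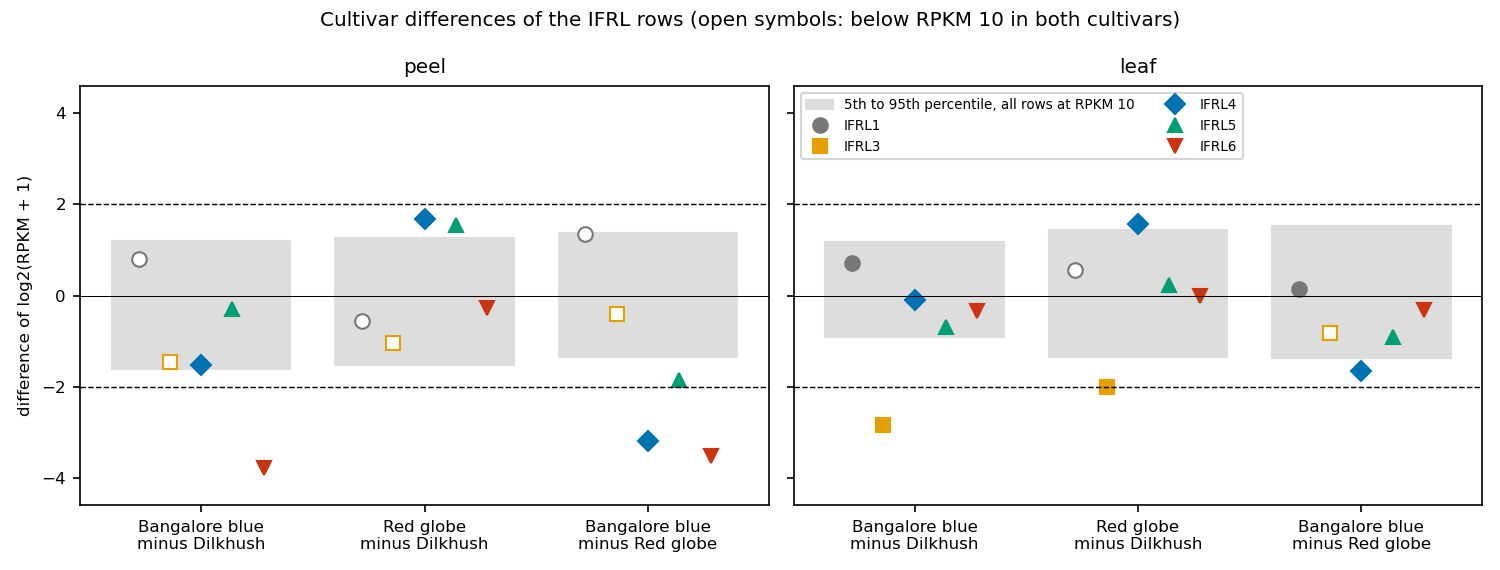
Difference of log2(RPKM + 1) between cultivars (vertical axis) for each IFRL row in peel and leaf; grey boxes span the 5th to 95th percentile of all rows at RPKM 10, dashed lines mark the 4-fold size of 2, and open symbols are rows below RPKM 10 in both cultivars. IFRL6 lies at -3.80 and -3.53 and IFRL4 at -3.19 in the Bangalore blue peel comparisons, and IFRL3 at -2.84 and -2.02 in the leaf comparisons with Dilkhush.

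Ratios among members within a column are left as they are when the whole column is multiplied by 1 factor, though not by quantile normalization. IFRL5 made up 94.1% of the summed IFRL RPKM in Bangalore blue peel, 84.3% in Red globe peel and 65.5% in Dilkhush peel. IFRL6 made up 3.71%, 11.3% and 31.1% in the same order. Together the 2 genes made up 97.8%, 95.6% and 96.6% of the sum in these peels. The proportion between them differed, with 0.039 RPKM of IFRL6 for each RPKM of IFRL5 in Bangalore blue peel, 0.134 in Red globe peel and 0.475 in Dilkhush peel. These ratios were 0.189 in Bangalore blue leaf, 0.126 in Red globe leaf and 0.149 in Dilkhush leaf, a narrower range than in peel. IFRL4 made up 1.69%, 4.39% and 3.03% of the sum in Bangalore blue, Red globe and Dilkhush peel, against 10.5%, 18.6% and 7.48% in the leaves. IFRL1 and IFRL3 were each below 1% of the sum in the peels. In Bangalore blue, Red globe and Dilkhush leaf IFRL1 made up 8.39%, 3.97% and 3.15%. IFRL3 made up 0.68%, 0.96% and 6.40% in the same order, and so passed 1% in Dilkhush leaf alone.

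The summed IFRL level was 343 RPKM in Bangalore blue peel, 1389 in Red globe peel and 609 in Dilkhush peel, and 127, 239 and 192 RPKM in the leaves. Red globe was highest and Bangalore blue lowest in both tissues. Without IFRL5 the peel sums were 20.1 RPKM in Bangalore blue peel, 218 in Red globe peel and 210.1 in Dilkhush peel. The excess of Red globe over Dilkhush peel in the family sum therefore lay in IFRL5, whereas the low sum of Bangalore blue peel was also seen without it.

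**Figure D3:**
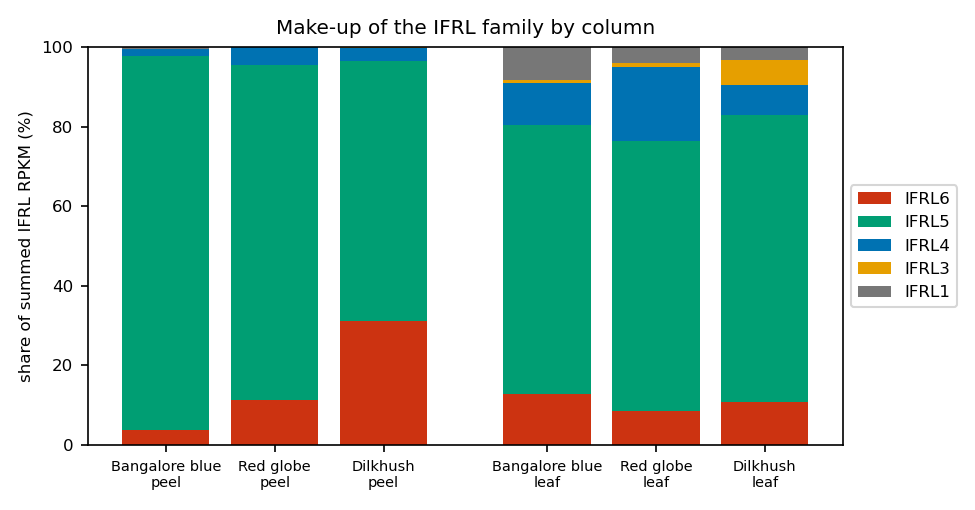
Share of each IFRL gene in the summed IFRL RPKM of a column (vertical axis, percent) for Bangalore blue, Red globe and Dilkhush in peel and then leaf. IFRL5 takes 94.1%, 84.3% and 65.5% of the sum in the peels, and IFRL6 takes 31.1% in Dilkhush peel. IFRL1 and IFRL4 are visibly larger shares in the leaves, and IFRL3 is so in Dilkhush leaf alone.

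All 5 members were found in the RefSeq gene table of assembly ASM3070453v1, where they lie on 4 chromosomes. IFRL5 and IFRL6 are on the same chromosome, with 3 protein-coding genes between them. The build used for the deposited files is not given in the sources used here, so this table was used for gene order alone. The genes between them carry no symbol, and their functions are not given in that table. LOC100255484, next to IFRL5, was 12.0 RPKM in Bangalore blue peel, 23.1 in Red globe peel and 26.7 in Dilkhush peel. Its cultivar order in peel was that of IFRL6, at a narrower range.

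LOC100250304 was listed at 0 in Bangalore blue peel and was 0.18 and 0.21 RPKM in Red globe and Dilkhush peel. LOC100853712 was listed at 0 in Bangalore blue peel, and was 3.04 RPKM in Red globe and 0.091 in Dilkhush peel. Both are thus low in peel beside the members at either end of the stretch. LOC100267485, on the far side of IFRL6, was 3.71 RPKM in Bangalore blue peel, 9.80 in Red globe peel and 14.4 in Dilkhush peel. All 6 genes from IFRL5 to LOC100267485 had their lowest peel value in Bangalore blue, as 39.9% of all rows above 0 in a peel column did. Of the 6, LOC100250304 and LOC100853712 were at 0 there. None of the 4 neighbours came near the 157 and 189 RPKM of IFRL6. In leaves this was not so, since LOC100853712 was highest in Bangalore blue, at 3.63 RPKM, against 2.17 in Red globe and 0.32 in Dilkhush. How reads were shared between close copies is not given in the sources used here, so the levels of close copies are uncertain.

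**Figure D4:**
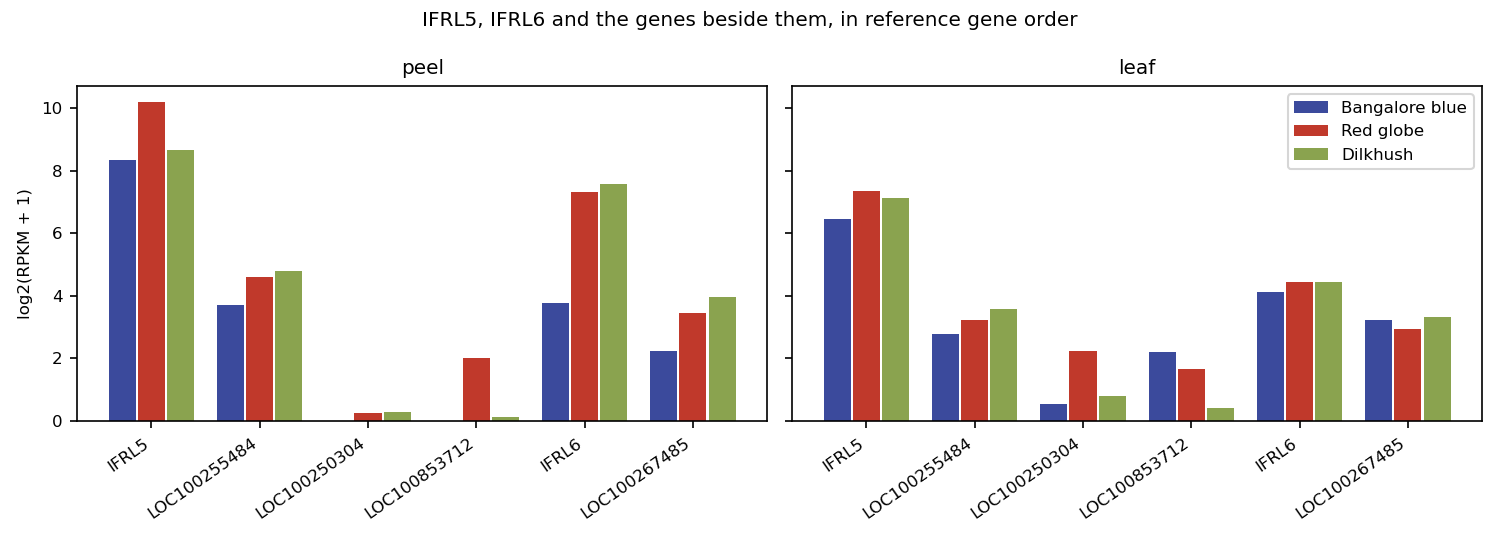
log2(RPKM + 1) (vertical axis) of IFRL5, IFRL6, the 3 genes between them and the gene beyond IFRL6, in the gene order of the reference, with bars for Bangalore blue, Red globe and Dilkhush in peel and leaf; each bar is 1 deposited value. Bangalore blue is the lowest of the peel bars for all 6 genes, and the gap is widest at IFRL6 (12.7 RPKM beside 157 and 189).

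The other members each lie on a chromosome with no other member. IFRL4 lies beside LOC100259078, which was 32.5 RPKM in Bangalore blue peel, 100.2 in Red globe peel and 22.8 in Dilkhush peel, highest in Red globe like IFRL4 itself. In leaves LOC100259078 was below 10 RPKM in all cultivars. On its other side a row that carries 2 gene identifiers, LOC100241970 and LOC100854643, was 44.7, 31.4 and 45.5 RPKM in Bangalore blue, Red globe and Dilkhush peel, with Red globe lowest. IFRL3 lies beside LOC100250736, which was 22.5 RPKM in Bangalore blue leaf, 23.8 in Red globe leaf and 39.1 in Dilkhush leaf, with Dilkhush highest. LOC100250736 was 47.3 RPKM in Bangalore blue peel, 30.1 in Red globe peel and 72.6 in Dilkhush peel, so its lowest cultivar was not that of IFRL3. LOC100267920, on the other side of IFRL3, was 13.0 RPKM in Bangalore blue peel, 18.3 in Red globe peel and 15.9 in Dilkhush peel. In leaves it was 4.16, 4.69 and 6.54 RPKM in Bangalore blue, Red globe and Dilkhush, the order of IFRL3 at a narrower range. On one side of IFRL1, LOC104877457 was near 0 throughout, at 0.044 RPKM in Bangalore blue peel and 0.093 in Bangalore blue leaf. It was listed at 0 in the other cultivars. Beside IFRL1, LOC100248319 was lowest in Bangalore blue in both tissues, where IFRL1 was highest, at 4.51 RPKM in Bangalore blue leaf, 5.13 in Red globe leaf and 16.6 in Dilkhush leaf.

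The cultivar pattern of each member was set beside that of other rows with a symbol, by Pearson's r over the 6 columns of log2(RPKM + 1) after each tissue was centred on its mean. With 6 columns, 3 of them in each tissue, few values are free to vary, and r is given as a description with no p-value. Candidates had to reach 10 RPKM in at least 1 column of each table in which the member did, so a row could enter through its highest cultivar alone, and r is in part set by that choice. Under Spearman's correlation 3 of the 3 nearest rows were the same for IFRL3, and 1 of 3 for each of the other members. CYP716A15, a cytochrome P450 that oxidizes triterpenes, was nearest to IFRL3 (r = 0.99, of 192 candidate rows). It was 48.3, 105 and 239 RPKM in Bangalore blue, Red globe and Dilkhush peel, and 3.50, 7.09 and 60.1 RPKM in the leaves. It shares the order of IFRL3 in both tissues but was more abundant in peel, where IFRL3 was low. In leaf it reached 10 RPKM in Dilkhush alone, as IFRL3 did. G1 (0.96) and GFH2 (0.88) came next.

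For IFRL4 the nearest row was MLO15, whose family includes genes that powdery mildew needs to infect, with r = 0.97 among 154 candidates. It was 8.90, 83.0 and 33.3 RPKM in Bangalore blue, Red globe and Dilkhush peel, and 32.3, 76.1 and 18.4 RPKM in the leaves. TPC1, a vacuolar cation channel (0.96), and the chitinase CHIT3 (0.90) followed. CHIT3 was also nearest to IFRL5 (0.98), ahead of the cell wall invertase CWINV (0.92) and the lipoxygenase LOX (0.91). In peel these 3 rows reached 10 RPKM in Red globe alone, the column where IFRL5 was highest. CHIT3 was 0.57, 11.7 and 0.73 RPKM in Bangalore blue, Red globe and Dilkhush peel, far below IFRL5. IFRL4 and IFRL5 were at r = 0.89 with each other.

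IFRL6 lay nearest to GDHB, a glutamate dehydrogenase subunit (0.95), to the ripening-induced GRIP31 (0.95) and to the calcium-sensor kinase CIPK09 (0.93). GDHB was 2.89, 14.3 and 27.7 RPKM in Bangalore blue, Red globe and Dilkhush peel, and 74.9, 84.1 and 60.5 RPKM in the leaves. In leaf GDHB was thus lowest in Dilkhush, where IFRL6 was not lowest. GDHB was also higher in leaf than in peel in every cultivar, unlike IFRL6 in Red globe and Dilkhush. Its correlation with IFRL6 was 0.83 by Spearman's measure. IFRL6 was at 0.73 with IFRL4 and at 0.56 with IFRL5, which lies on the same chromosome. IFRL1 stood apart from the other members, with r between -0.58 and -0.80. Its nearest rows were the kinase CIPK02 (0.92), the lipoxygenase LOXA (0.85) and the kinase CIPK07 (0.84), all highest in Bangalore blue among the peels. With a pseudocount of 0.1, 1 of these 3 was still among the nearest 3. In leaves LOXA was highest in Dilkhush, unlike IFRL1, at 183, 178 and 190.4 RPKM in Bangalore blue, Red globe and Dilkhush. CIPK02 was 298 RPKM in Bangalore blue leaf, 144 in Red globe leaf and 130.1 in Dilkhush leaf.

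**Figure D5:**
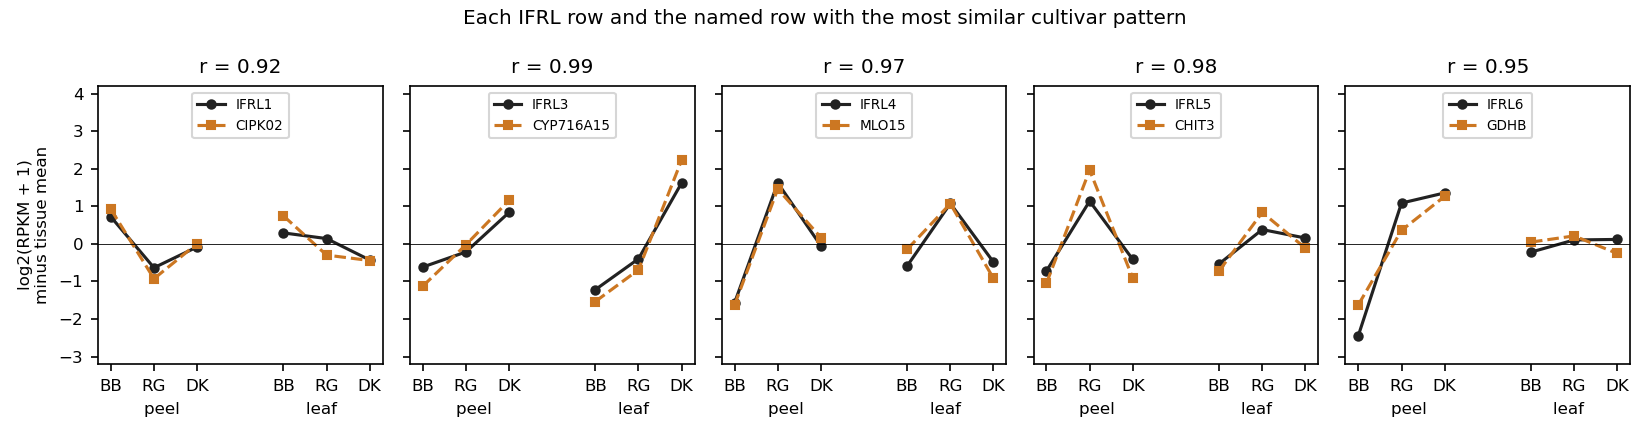
log2(RPKM + 1) minus the mean of its tissue (vertical axis) for each IFRL row (black circles) and the named row with the highest Pearson's r (orange squares), in Bangalore blue (BB), Red globe (RG) and Dilkhush (DK) peel and then leaf. The patterns peak in Bangalore blue for IFRL1 with CIPK02, in Dilkhush for IFRL3 with CYP716A15, and in Red globe for IFRL4 with MLO15 and IFRL5 with CHIT3.

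Among other genes of phenolic metabolism, the nearest in kind are LAR1 and LAR2, the leucoanthocyanidin reductases that feed tannin synthesis. LAR2 was 3.92 RPKM in Bangalore blue peel, 14.3 in Red globe peel and 61.8 in Dilkhush peel. It was lowest in Bangalore blue and highest in Dilkhush, as IFRL6 was, but Red globe stood nearer to Bangalore blue for LAR2 and nearer to Dilkhush for IFRL6. LAR2 was called lower against Dilkhush in Bangalore blue peel (difference -3.68) and in Red globe peel (-2.04). In leaves LAR1 was 62.7, 15.1 and 28.3 RPKM and LAR2 was 76.5, 63.6 and 130.2 RPKM in Bangalore blue, Red globe and Dilkhush, and neither was called. LAR1 was below 2 RPKM in every peel column.

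The list of flavonoid enzymes, from chalcone synthase to the anthocyanin glucosyltransferase UFGT, had 12 rows. Against Dilkhush peel, Bangalore blue peel had 5 of them called higher and 0 lower, of 11 at the floor, with a median difference of 1.64 over the 12 rows. Over all 9551 rows tested there, 226 were called higher and 356 lower. For Red globe over Dilkhush peel 3 were called higher and 0 lower, of 10 at the floor, beside 232 higher and 321 lower among all 9594 rows. For Bangalore blue over Red globe peel 2 were called higher and 0 lower, of 11 at the floor, beside 226 higher and 271 lower among all 9459 rows. In leaves 1 row was called, of 10 at the floor in that comparison and where 5.3% of all rows were, the flavonol synthase FLS1, at 252 RPKM in Red globe leaf and 26.1 in Dilkhush leaf. UFGT was 297 RPKM in Bangalore blue peel, 308 in Red globe peel and 2.09 in Dilkhush peel. The IFRL members called in peel, IFRL4 and IFRL6, were lower in Bangalore blue. The family was selected with these differences known, so their direction is not a contrast found between the family and this list. Whether the lists differ was not tested, as there is 1 value for each group.

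Stilbene synthases, which make resveratrol, had 3 rows, all called higher in Red globe than in Dilkhush peel, where IFRL4 and IFRL5 were higher without being called. In that comparison 232 of all 9594 rows tested were called higher. The 3 rows reached 10 RPKM in Red globe peel alone, so they passed the floor through the column where they were high. These rows are close copies, among which reads cannot be placed with certainty. VINST1 was 3.48 RPKM in Bangalore blue peel, 13.0 in Red globe peel and 0.13 in Dilkhush peel. Of the 3 phenylpropanoid and lignin rows, 4CL and CCOAMT reached the floor and gave 0 calls in the 6 comparisons. Between 4.05% and 6.09% of all rows tested were called in these comparisons, so 0 calls from so few rows is near that share. The PAL row stayed below 2 RPKM in every column and could not be called. CCOAMT, a methyltransferase of the lignin branch, was 12.5, 17.8 and 13.0 RPKM in Bangalore blue, Red globe and Dilkhush peel, and 58.7, 64.6 and 60.4 RPKM in the leaves, a range of less than 2-fold in each tissue.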

How the data were processed

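Total RNA of fruit peels and young leaves was made into directional mRNA libraries, per the labels' protocols. Per the submitters' processing notes, the tools were TopHat2 2.1.1 and Cufflinks 2.2.1, with no role stated. The authors deposited RPKM, 1 table per tissue and 1 column per cultivar. Neither the genome build, nor the annotation, nor the way 2 libraries became 1 column is given in the sources used here. Columns were tied to groups by initials that match the sample titles.

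Depth is unknown: in low values no step of whole reads was found, since at most 1.84% of the ratios between columns fell within 1% of each other. Differences of log2(RPKM + 1) were computed over all rows with pandas 2.3.3 and numpy 2.4.6. Rows whose larger value reached 10 RPKM counted as tested. No p-value was computed. A linear model was planned for the case of 1 column per library and was not fitted. The call step was tested on simulated data.

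The members, lists and rules were chosen with earlier results of these data known. Named are all IFRL rows, the 3 likest symbol rows of each, and list members. For likeness, rows had to carry a symbol found on 1 row in both tables and reach 10 RPKM in at least 1 column of each table where the member did so. Lists were matched by symbol or by reference synonym. The reference gives no descriptions, so relatives, leaf, peel and seed markers that were to be found by description were not used. The neighbouring genes were added after the values were seen. Alternatives were other pseudocounts, floors, sizes and scalings and, for likeness, Spearman's correlation.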

Additional observations from a re-analysis of the deposited data

Results flagged for a closer look

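IFRL1 differed between Red globe and Dilkhush in opposite directions in the 2 tissues. The difference of log2(RPKM + 1) was -0.55 in peel, at 0.026 RPKM in Red globe and 0.51 in Dilkhush, and 0.57 in leaf, at 9.50 RPKM in Red globe and 6.07 in Dilkhush. With a pseudocount of 0.1 the peel difference was -2.26 and the leaf difference 0.64, so the sizes were similar with a pseudocount of 1 and not with 0.1. Neither was called, all 4 values were below 10 RPKM, and the difference between tissues was not tested, as each group has 1 value.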

How the results depend on the processing

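No paired analysis was possible because the deposited tables hold 1 column for each group and no value for a single library, and leaving out a library was not run for the same reason. Counts of called IFRL rows were the same as reported, in each of the 6 comparisons, with a pseudocount of 0.1, with no floor and with quantile normalization. At a 2-fold size the count was 2 for Bangalore blue against Dilkhush peel (17.1% of all rows tested called), 2 for Red globe against Dilkhush peel (17.3%), 3 for Bangalore blue against Red globe peel (15.6%, with IFRL5 added), 2 for Red globe against Dilkhush leaf (18%) and 1 for Bangalore blue against Red globe leaf (19.8%). It stayed at 1 for Bangalore blue against Dilkhush leaf (10.6%). IFRL3 in leaf was the member whose calls were lost. Where 2 columns had to reach 5 RPKM, and at an 8-fold size, its calls in Bangalore blue leaf and in Red globe leaf against Dilkhush leaf both ended, leaving 0 in each. For Red globe against Dilkhush leaf, the count was also 0 with equal medians and when columns had equal totals outside transfer RNA (added after seeing the data), at log2 differences of -1.96 and -1.94. The calls of IFRL6 and IFRL4 in peel were kept under every alternative tried. Of 120 member differences under another pseudocount or scaling, 116 kept their sign, and the 4 others were IFRL6 between Red globe and Dilkhush. The largest shift of a median over all rows tested was 0.15, for Red globe against Dilkhush peel under that last scaling. With a pseudocount of 0.1, IFRL3 in peel had log2 differences of -4.20 for Bangalore blue and -2.13 for Red globe against Dilkhush, and IFRL1 in peel had 1.51 and -2.26, with 3.77 for Bangalore blue against Red globe, all below the RPKM floor. IFRL3 moved to -2.07 for Bangalore blue against Red globe peel and to -3.69 for Bangalore blue against Dilkhush leaf. For likeness, the nearest 3 rows shared 1 row with those under Spearman's correlation for IFRL1, IFRL4, IFRL5 and IFRL6, and 3 for IFRL3. Unknown depth limits what can be said of IFRL1 and IFRL3 in peel.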
